A study of Mus musculus with 8 samples.

Results

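The genes examined here were 4 chemokine ligands of the receptor CXCR2 (Cxcl1, Cxcl2, Cxcl3 and Cxcl5), the receptor gene Cxcr2, the gene of granulocyte colony-stimulating factor (Csf3) and that of its receptor (Csf3r). They were taken by symbol as 7 of the 22740 genes counted in mouse skin, and were selected on their CPM and log2 fold changes in earlier results of the same libraries. Their levels and differences are therefore a description, and a count of calls among them follows from that selection and supports nothing. RNA had been sequenced from whole skin of 8 mice, 2 per group, each mouse giving 1 library.

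All mice were female BALB/c mice aged 6 to 8 weeks on a low-fibre diet. Baseline CTL mice drank water without butyrate and received no allergen. Baseline butyrate mice drank 400 mM sodium butyrate, a short-chain fatty acid, and received no allergen. Lesional CTL mice had 4 epicutaneous exposures to 15 µg of house dust mite (HDM) allergen over 2 weeks, which induces atopic dermatitis-like skin inflammation (ADLSI). Lesional butyrate mice had the same exposures and drank 400 mM sodium butyrate from 2 weeks before the first of them. The allergen was held on shaved dorsal skin by a gauze and an occlusive dressing. For these libraries the paper does not say that baseline mice were shaved or patched. HDM exposure therefore stands here for allergen and patch together, which cannot be told apart. The comparisons addressed how these transcripts differed with HDM exposure and with butyrate in the drinking water.

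CXCR2 is a receptor on neutrophils, and its ligands, released by keratinocytes, fibroblasts, endothelium and leukocytes, draw neutrophils out of the blood into inflamed tissue. G-CSF acts on the bone marrow through its receptor, where it drives the production and release of neutrophils. Interleukin-1, interleukin-17 and TNF induce the ligands and G-CSF in skin, largely through NF-kappaB and by protecting their short-lived transcripts from decay.

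Library totals lay between 18004136 and 21085544 counts, and a floor of 3 counts corresponded to 0.138 to 0.169 CPM (counts scaled to the size of the library). Skin was recognisable in all 8 libraries, with keratinocyte markers summing to 8970 to 23506 CPM. Baseline butyrate replicate 3 stood apart from the other 7 mice, since 9 genes of the growing hair follicle summed to 17277 CPM in it and to 19.1 to 32.4 CPM in the others. Baseline and lesional mice also carry different leading numbers in the sample titles, so HDM exposure and a difference between these sets of mice cannot be told apart. The second number in the titles differs in the same way between CTL and butyrate mice. Butyrate and a difference between those sets therefore cannot be told apart. In whole skin, fewer cells of a type and less RNA per cell cannot be told apart either.

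The 4 ligand genes lie head to tail on the plus strand of chromosome 5 of GRCm38, within 146.579 kb. Cxcl5 spans 90759360 to 90761624, Cxcl3 90786103 to 90789600, Cxcl1 90891241 to 90893115 and Cxcl2 90903871 to 90905938. The 100 bases before the start of Cxcl1, Cxcl2 and Cxcl3 are shown, taking the GENCODE start for Cxcl1 and Cxcl2 and the RefSeq start for Cxcl3, whichever came first, because these 3 promoters share a pair of elements, which are in capitals. They are the 2 runs of 8 or more bases that occur in all 3 within 250 bases upstream. The first, GGGAATTTCCC, has the letters of a kappaB element, the kind of sequence that NF-kappaB binds, and the second, ATAAAAGG, those of a TATA box. The sequences are from RefSeq (GRCm38.p6, plus strand).
Cxcl3, chr5:90786001-90786100: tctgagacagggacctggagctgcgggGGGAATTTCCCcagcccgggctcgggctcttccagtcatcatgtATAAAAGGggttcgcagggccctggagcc
Cxcl1, chr5:90891141-90891240: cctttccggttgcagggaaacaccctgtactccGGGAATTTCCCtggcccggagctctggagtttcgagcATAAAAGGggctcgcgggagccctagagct
Cxcl2, chr5:90903771-90903870: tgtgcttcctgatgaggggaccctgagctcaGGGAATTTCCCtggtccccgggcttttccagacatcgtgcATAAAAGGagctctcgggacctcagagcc

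The kappaB letters began 67 bases before that start of Cxcl1, 69 before that of Cxcl2 and 73 before that of Cxcl3, and the TATA letters 29 to 30 bases before it. Because both runs were defined from these 3 promoters, their presence there is no finding. On either strand, GGGAATTTCCC was found in 0.0426% of the 32851 RefSeq promoters searched over 250 upstream bases, and ATAAAAGG in 1.54%. The letters of an AP-1 element (TGANTCA, in 6.75% of promoters) and of a C/EBP element (TTGCNNAA, in 9.56%) were in none of the 5 members that the table holds, and Cxcl5 and Csf3 are not among those 5. The promoters of Cxcr2 and Csf3r held none of the 4 motifs. A match of letters is a description of the sequence and does not show that a factor binds there.

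Cxcl5 was the ligand with the widest range. It had 1 and 4 counts in the baseline CTL mice and 1 and 3 counts in the baseline butyrate mice. After HDM it reached 62.1 and 67.4 CPM with plain water, and 5.15 and 5.49 CPM with butyrate. The 4 baseline mice were thus at the limit of detection, and the lesional butyrate mice lay between them and the lesional CTL mice without overlap with either. From baseline to lesional skin of CTL mice the log2 fold change was 8.80 (standard error 0.45), and the ratio of summed counts was 468, with an exact 95% interval of 200.3 to 1442 that covers counting error only. Between lesional butyrate and lesional CTL mice the log2 fold change was -3.60 (0.31), the most precise among the ligands. Lesional butyrate mice were still above baseline CTL mice, by a log2 fold change of 5.20 (0.44).

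Cxcl2 was measured at 0.167 and 0.277 CPM in baseline CTL mice, from 3 and 5 counts. The baseline butyrate mice had 1.35 and 0.234 CPM, the lesional CTL mice 18.8 and 31.8 CPM, and the lesional butyrate mice 1.57 and 0.930 CPM. Lesional CTL mice were far above all others, and the lesional butyrate mice overlapped with baseline butyrate replicate 1. With HDM in CTL mice the log2 fold change was 6.79 (standard error 0.88), and between the lesional groups it was -4.33 (0.73), the lowest value of the 7 genes. In lesional butyrate against baseline CTL mice it was 2.46 (0.88).

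Cxcl1 was the only ligand with more than 5 counts in every mouse. Its level was 2.06 and 1.66 CPM in baseline CTL, 2.37 and 0.468 CPM in baseline butyrate, 26.3 and 36.2 CPM in lesional CTL and 6.73 and 6.05 CPM in lesional butyrate mice. All 4 lesional mice were above all 4 baseline mice, and the lesional groups did not overlap. The log2 fold change was 4.07 (standard error 0.66) with HDM in CTL mice, -2.29 (0.59) between the lesional groups and 1.78 (0.62) from baseline CTL to lesional butyrate mice.

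Cxcl3 was the scarcest ligand, with 1 count in each baseline CTL mouse and 0 in each baseline butyrate mouse. It had 75 and 168 counts (4.00 and 7.75 CPM) in lesional CTL mice and 14 and 5 counts (0.668 and 0.233 CPM) in lesional butyrate mice. Lesional CTL mice were again the highest and lesional butyrate mice the next, but the baseline levels were below the floor. The ratio of summed counts between lesional and baseline CTL mice was 108, with an exact 95% interval of 29.7 to 899. Between the lesional groups the log2 fold change was -3.69 (standard error 0.63). Cxcl2 and Cxcl3 share 126 stretches of 50 bases, 5.84% of those of Cxcl2, so the counting could have split or dropped some of their reads, and their separate levels are uncertain to that extent. Cxcl1 shares none with another gene.

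**Figure D1:**
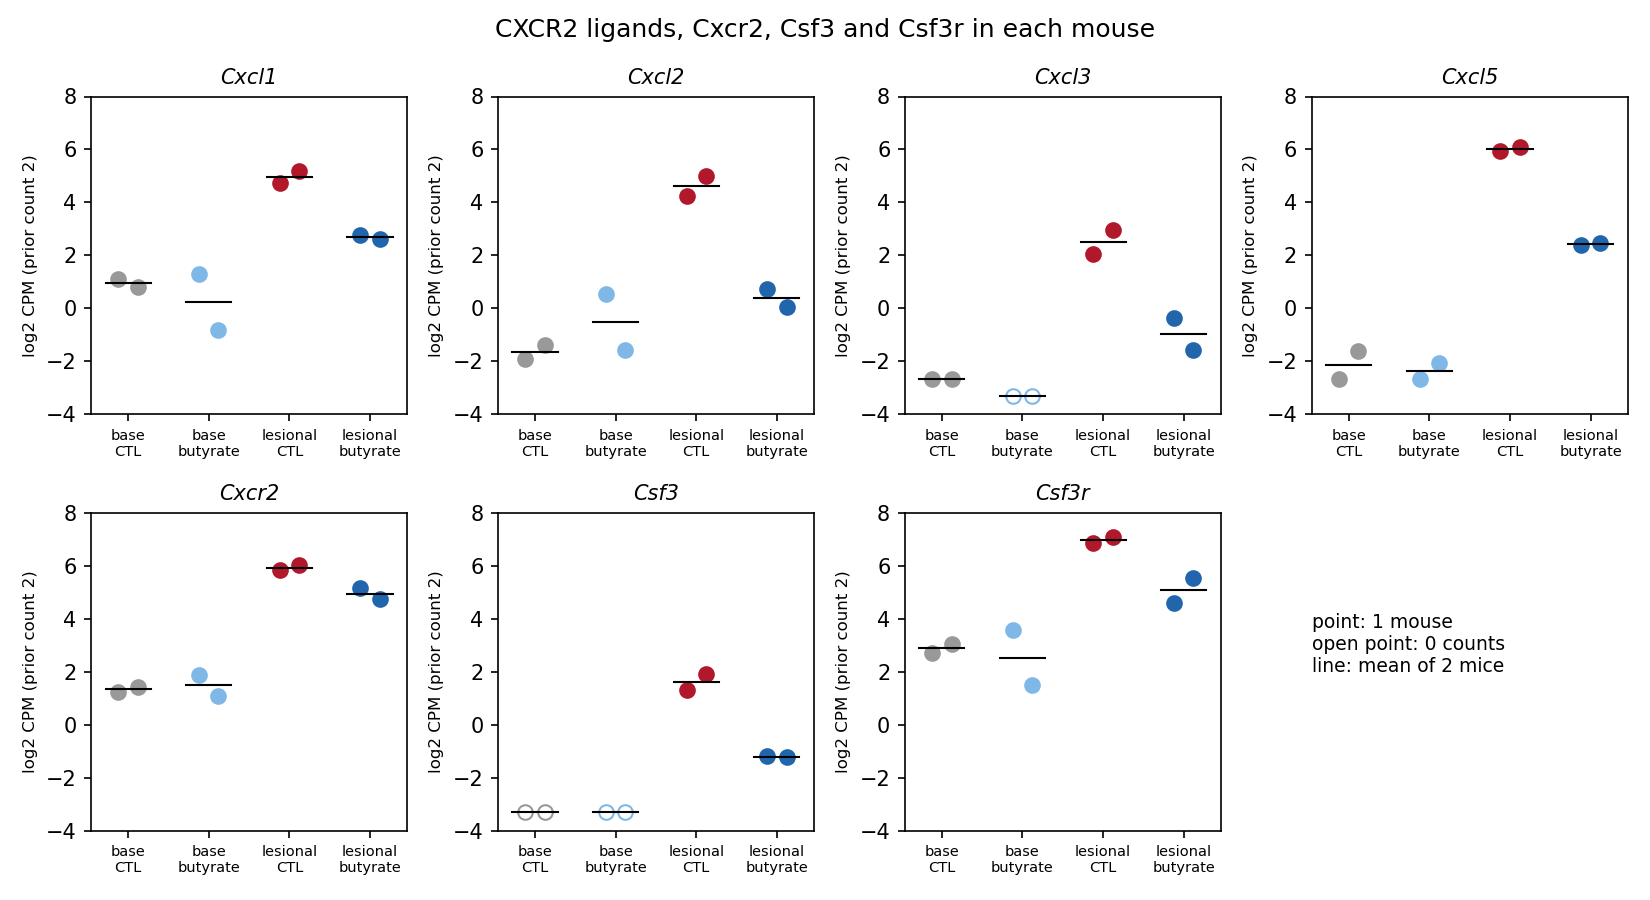
Level of each of the 7 genes as log2 CPM (with a prior count of 2), 1 point per mouse in 4 groups and a line at the mean of 2 mice; open points are mice with 0 counts. In each panel the 2 lesional CTL mice are the highest, and for Cxcr2 the lesional butyrate mice (35.7 and 26.4 CPM) lie closest to them.

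Set side by side per length, the make-up of the ligand pool differed between the groups. In baseline CTL mice Cxcl1 made up 83.2% ± 9.1 (SD, n = 2) of the summed CPM per kilobase of exon (RPKM) of the 4 ligands. In lesional CTL mice Cxcl5 was the most abundant with 34.8 RPKM (53.7% ± 5.9 of the pool), followed by Cxcl1 with 16.7 RPKM (25.4% ± 1.5), Cxcl2 with 12.2 RPKM (18.4% ± 3.7) and Cxcl3 with 1.68 RPKM (2.51% ± 0.74). In lesional butyrate mice Cxcl1 (3.41 RPKM, 48.7% ± 0.6) and Cxcl5 (2.86 RPKM, 41.0% ± 4.4) were the main ligands, and Cxcl2 was at 8.57% ± 2.6. Cxcl1 thus took a higher share in both lesional butyrate mice than in either lesional CTL mouse. Within each lesional CTL mouse the order of levels was Cxcl5, Cxcl1, Cxcl2 and Cxcl3, although Cxcl1 and Cxcl2 overlapped between the mice (16.7 ± 3.7 and 12.2 ± 4.4 RPKM, SD, n = 2). Within each lesional butyrate mouse Cxcl1 was above Cxcl5.

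**Figure D2:**
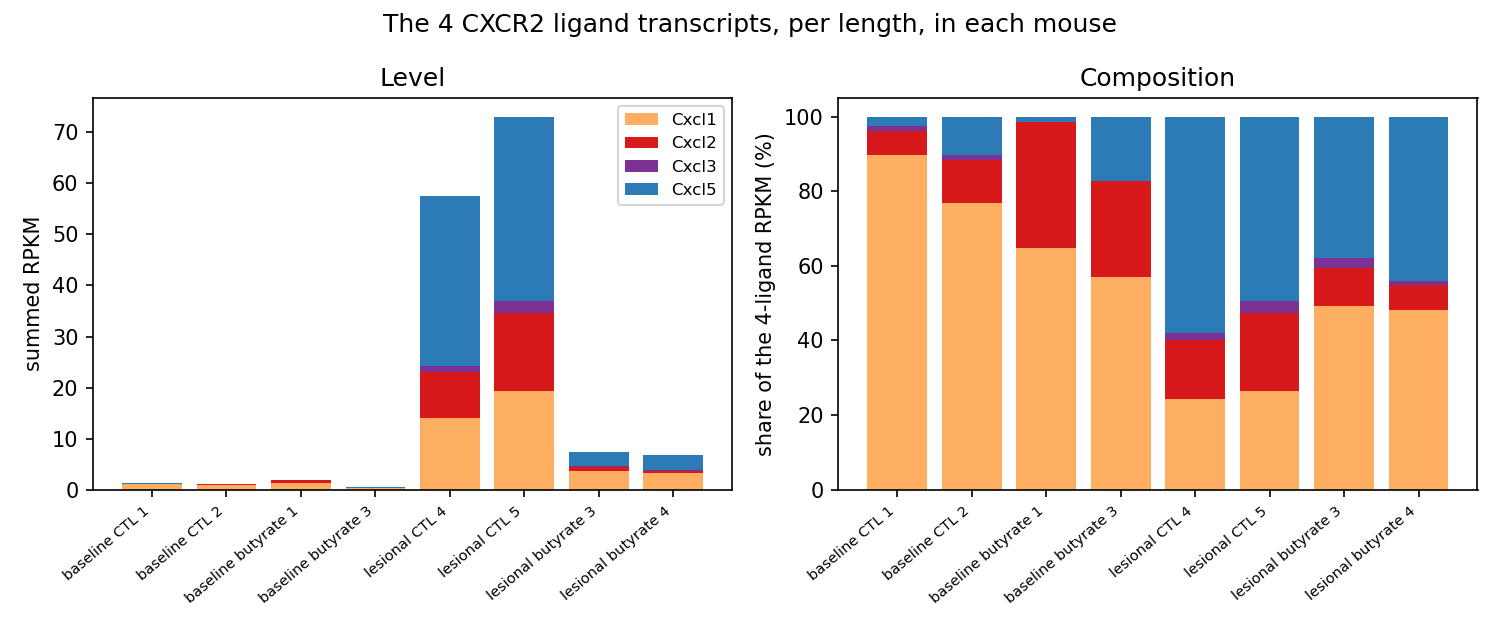
Summed RPKM of the 4 ligands (left) and the share of each in that sum in percent (right), 1 bar per mouse. The lesional CTL bars reach 57.6 and 73.1 RPKM and have Cxcl5 as the largest share (57.9% and 49.5%), while the lesional butyrate bars reach 7.31 and 6.69 RPKM and are about evenly Cxcl1 and Cxcl5.

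Cxcr2, on chromosome 1 from 74153989 to 74161246, encodes the receptor of these ligands. Its level was 2.22 and 2.61 CPM in baseline CTL, 3.61 and 2.01 CPM in baseline butyrate, 56.8 and 64.5 CPM in lesional CTL and 35.7 and 26.4 CPM in lesional butyrate mice. All 4 lesional mice were above all 4 baseline mice, and the lesional groups did not overlap. Its log2 fold change was 4.65 (standard error 0.33) with HDM in CTL mice, 3.68 (0.32) from baseline CTL to lesional butyrate mice and -0.97 (0.28) between the lesional groups. Of the 7 genes Cxcr2 had the smallest difference between the lesional groups. The summed ligand RPKM per RPKM of Cxcr2 was 3.09 and 3.46 in lesional CTL mice, 0.623 and 0.773 in lesional butyrate mice, 1.68 and 1.35 in baseline CTL mice and 1.65 and 0.664 in baseline butyrate mice. This ratio was lower in both lesional butyrate mice than in any CTL mouse, and baseline butyrate replicate 3 lay within their range.

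Csf3, on chromosome 11 from 98701263 to 98703629, encodes G-CSF. No read was counted in any of the 4 baseline mice. The lesional CTL mice had 44 and 79 counts (2.35 and 3.64 CPM), and each lesional butyrate mouse had 7 counts (0.334 and 0.326 CPM). Against a floor of 3 counts over both baseline CTL libraries, lesional CTL mice were at least 36.5-fold higher and lesional butyrate mice at least 3.96-fold higher. Between the lesional groups the log2 fold change was -3.16 (standard error 0.48), and the ratio of summed counts was 0.108 with an exact 95% interval of 0.058 to 0.189.

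Csf3r, on chromosome 4 from 126024550 to 126044440, encodes the G-CSF receptor, which is expressed in the neutrophil lineage and in monocytes. Its level was 6.44 and 8.16 CPM in baseline CTL, 11.7 and 2.71 CPM in baseline butyrate, 117 and 137 CPM in lesional CTL and 24.2 and 46.8 CPM in lesional butyrate mice. All 4 lesional mice were again above all 4 baseline mice without overlap of the lesional groups, with a wider gap between the 2 lesional butyrate mice than for Cxcr2. The log2 fold change was 4.12 (standard error 0.70) with HDM in CTL mice and -1.84 (0.63) between the lesional groups. There were 0.485 and 0.471 reads of Cxcr2 per read of Csf3r in the lesional CTL mice, 1.47 in lesional butyrate replicate 3 and 0.563 in lesional butyrate replicate 4. The ratio of the receptors was thus alike in both lesional CTL mice and higher in both lesional butyrate mice, by different amounts. In Csf3r, 10.7% of its stretches of 50 bases occur in other genes, and in Cxcr2 6.68%.

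Counted over the 7 genes, lesional CTL mice were above baseline CTL mice in 7 of 7 without overlap, where the groups of 36.7% of all tested genes did not overlap in that direction. By edgeR's quasi-likelihood test 7 of 7 were called higher (FDR below 0.1 and fold above 2), beside 2.37% of the 15163 genes tested, a comparison that the choice of the genes had used. Cxcl2, Cxcl3, Cxcl5 and Csf3 passed the filter on low counts through lesional mice, so they could enter only by being high there. The log2 fold changes lay between 4.07 and 8.80 for the 6 genes with reads in baseline CTL mice, and the median was 5.19 with Csf3 at its bound. How many genes were called over all genes depended on which mouse was left out, as given in the closing sections. With each mouse left out in turn, the 7 log2 fold changes stayed above 0, from 3.82 to 4.28 for Cxcl1 and from 8.15 to 10.03 for Cxcl5.

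Between lesional butyrate and lesional CTL mice, 7 of 7 genes were lower without overlap, where 22.5% of all tested genes were. The median log2 fold change of the 7 was -3.16, and that of all tested genes was -0.01. The 2 mice per group did not carry a call over all genes in the fit of 8 mice, in which edgeR called 0 of 15163 genes (0%) and 734 had an unadjusted p below 0.05. Over the same mice limma-voom called 1 gene lower, Cxcl5 (0.0066% of those tested), and DESeq2 101 (0.666%), with 5 of the 7 among them. With only the 4 lesional mice in the fit, edgeR called 22 lower (0.148%), with 3 of the 7 among them. Without the 2 baseline butyrate mice, whose spread was the widest of the 4 pairs, edgeR called 137 lower (0.911%), with 6 of the 7 among them. These calls among the 7 follow from how the genes were selected and support nothing. The 7 log2 fold changes were below 0 in each fit, including those that left out 1 mouse.

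**Figure D3:**
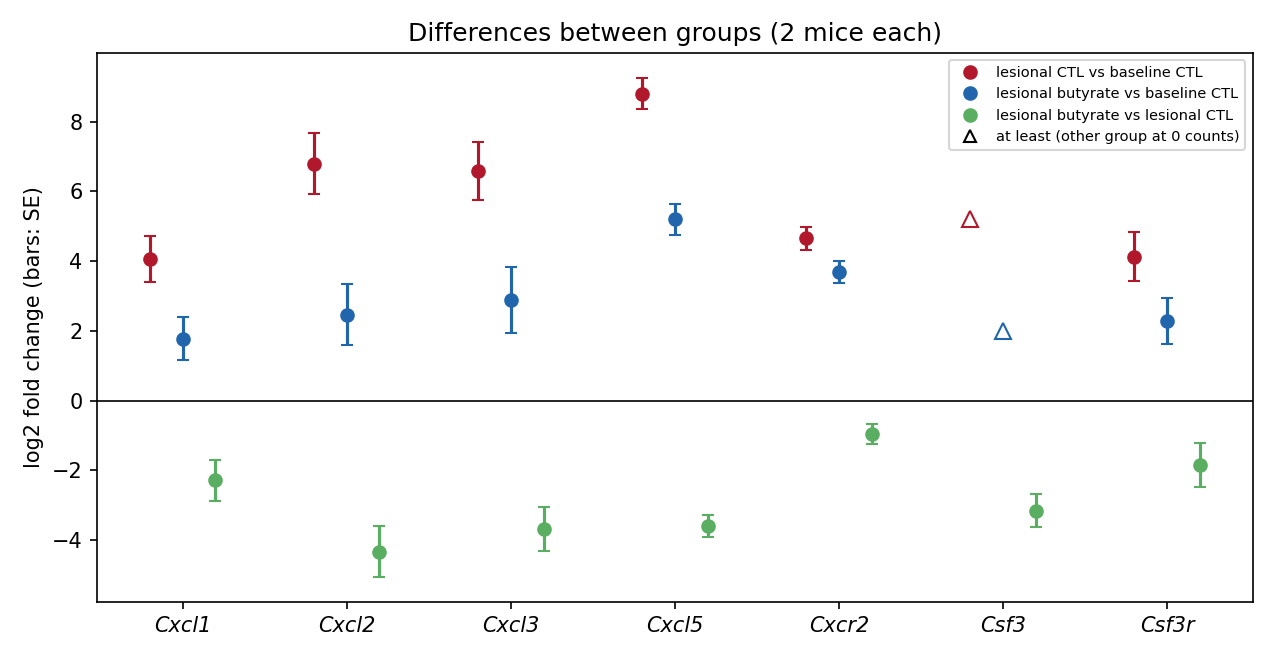
Log2 fold changes (bars, standard error) of the 7 genes for 3 comparisons of 2 mice against 2; triangles are lower bounds for Csf3, which had 0 counts in baseline CTL mice. For each gene the value of lesional butyrate against baseline CTL (from 1.78 for Cxcl1 to 5.20 for Cxcl5) is above 0 and below that of lesional CTL against baseline CTL.

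HDM exposure in butyrate-treated mice was compared with both baseline groups. Against baseline CTL mice, 7 of 7 genes were higher without overlap (31.2% of all tested genes were), and 2 of 7, Cxcl5 and Cxcr2, were called by edgeR (0.303% of genes called higher). Against baseline butyrate mice, 6 of 7 were higher without overlap (16.4% of genes), Cxcl2 being the exception, and the same 2 were called (0.277%). In this comparison the log2 fold change of Cxcl5 was 5.61 (standard error 0.45) and that of Cxcr2 3.46 (0.32). With only the 4 mice of each comparison in the fit, edgeR called 5 of 7 against baseline CTL mice (3.48% of genes higher) and 0 against baseline butyrate mice (0% of genes). DESeq2 called 6 of 7 in each (2.24% and 2.55% of genes higher). Both comparisons with lesional butyrate mice share the same 2 lesional mice.

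In baseline skin, butyrate-treated and CTL mice overlapped in 6 of 7 genes, and in the seventh, Cxcl3, the difference was 1 count against 0, where 16.4% of genes were lower without overlap. No gene was called by edgeR among 15163 (0%), with 529 at an unadjusted p below 0.05, while limma-voom called 0 (0%) and DESeq2 58 (0.383%). Baseline butyrate replicate 1 was the higher of the pair and replicate 3 the lower for Cxcl1, Cxcl2, Cxcr2 and Csf3r. Cxcl1 had a log2 fold change of -0.41 (standard error 0.65), 0.35 without replicate 3 and -1.96 without replicate 1, and Csf3r one of -0.02 (0.65), 0.68 and -1.40. The butyrate effect in lesional minus that in baseline skin was called for no gene (0%; 703 at an unadjusted p below 0.05, limma-voom 0, DESeq2 37 or 0.244%, Cxcl2 among them). On the log2 scale it was -6.11 (1.14) for Cxcl2, -3.19 (0.85) for Cxcl5, -1.88 (0.87) for Cxcl1, -1.82 (0.90) for Csf3r and -1.18 (0.42) for Cxcr2. For Cxcl3 the fit gave -0.41 (0.70), after subtracting a baseline effect of -3.29 (1.89) that rests on 1 count against 0 per mouse. With 0 counts in the baseline butyrate mice, that baseline value depends on the prior count, so the difference for Cxcl3 could not be estimated reliably. For Csf3, with 0 counts in all baseline mice, it could not be estimated.

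The remaining genes of the pathway were taken in 9 lists of 120 genes, of which 105 were tested. With HDM in CTL mice, edgeR called 26 higher and 0 lower (24.8%, against 3.58% of all genes called in either direction). Of the 105, 90 were above and 15 below 0. The lists were chosen with earlier results of these data known, so this share is a description and supports nothing. Between the lesional groups 0 of 105 were called, 75 being below and 30 above 0, with 25 at an unadjusted p below 0.05. The 7 genes described above are not among the 120. DESeq2 called 17 of the 105 between the lesional groups, edgeR with only the 4 lesional mice 5, and edgeR without the 2 baseline butyrate mice 14.

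**Figure D4:**
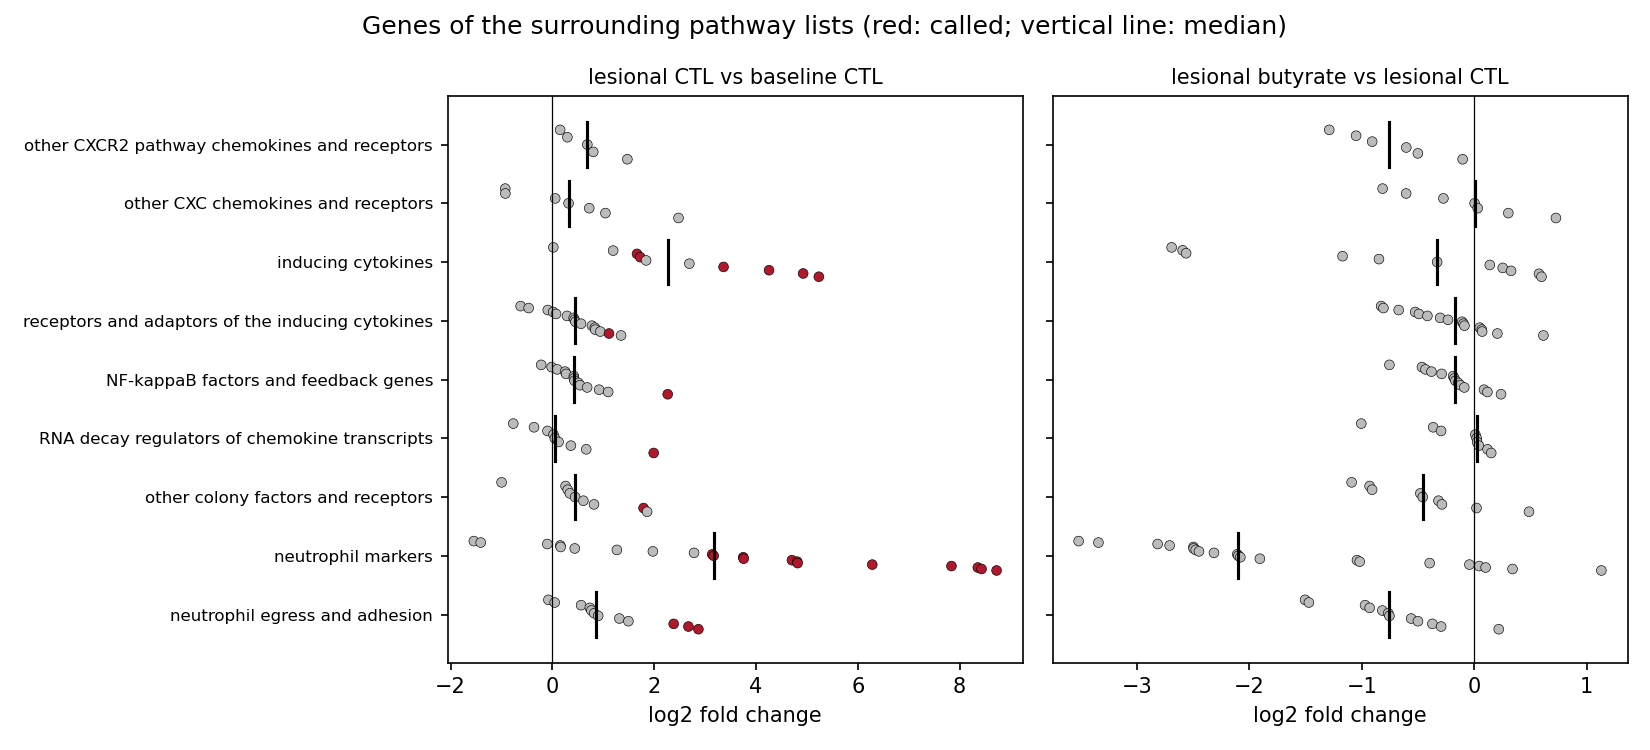
Log2 fold change of single genes in 9 pathway lists, for HDM in CTL mice (left) and for butyrate in lesional skin (right), with called genes in red and a line at the median; genes at 0 counts in a compared group are left out. On the left the inducing cytokines and neutrophil markers reach farthest above 0, and on the right the neutrophil markers lie farthest below it with no gene called.

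Among 14 cytokines that induce the ligands or act beside them, 11 were tested. With HDM in CTL mice 11 had a log2 fold change above 0 and 6 were called higher. Il1b, the main inflammatory interleukin-1, rose by a log2 fold change of 5.23 (standard error 0.61, FDR 0.029), Il6 by 4.93 (0.66, FDR 0.037) and Osm, a relative of interleukin-6, by 4.26 (0.81, FDR 0.065). Il36a, an interleukin-1 relative of the epidermis, rose by 3.36 (0.67, FDR 0.071), Lif by 1.72 (0.33, FDR 0.065) and Tnf by 1.66 (0.26, FDR 0.041). Il1b was measured at 4.56 and 2.55 CPM in baseline CTL mice, and in lesional mice at 132 and 136 CPM without and 19.9 and 25.5 CPM with butyrate. For Il6 the lesional values were 11.3 and 16.1 CPM without and 2.62 and 1.91 CPM with butyrate. The lesional groups of both genes did not overlap, with log2 fold changes of -2.56 (0.53) and -2.59 (0.56) and an FDR of 0.74 each.

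The interleukin-36 genes did not follow this order. Il36g was measured in lesional skin at 115 and 110 CPM without and 185 and 97.3 CPM with butyrate, for which the log2 fold change was 0.33 (standard error 0.67, FDR 1.0). Il36b was at 74.0 and 58.4 CPM against 98.2 and 47.4 CPM (0.14, standard error 0.58), and Il36a at 39.3 and 35.1 CPM against 63.3 and 25.3 CPM. In all 3 genes lesional butyrate replicate 3 was the highest and replicate 4 the lowest of the 4 lesional mice, so the groups overlapped. Il17a and Il22, the cytokines of type 17 cells, had 0 counts in the baseline mice and at most 0.96 CPM in any lesional mouse. They were not tested, and neither was Il17c. Il17f, of the same cells, also had 0 counts in the baseline mice and in lesional skin was at 3.90 and 0.83 CPM without and 2.05 and 0.56 CPM with butyrate. It was not called with HDM (FDR 0.16) or between the lesional groups, which overlapped.

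Of 16 receptors, receptor antagonists (Il1rn and Il36rn) and adaptors of these cytokines, 1 was called with HDM. This was Il1r1, the signalling receptor of interleukin-1 (log2 fold change 1.11, standard error 0.16, FDR 0.037). Between the lesional groups 11 of the 16 were lower, 8 without overlap, and 5 were higher, 2 without overlap. Over all tested genes, 22.5% were lower and 22.4% higher without overlap. By edgeR 0 of the 16 were called and 3 had an unadjusted p below 0.05. Il1r1 was at 141 and 156 CPM without and 88.0 and 81.7 CPM with butyrate. Il6st (-0.23, 0.26), Tnfrsf1a (-0.11, 0.15) and Il36rn (0.61, 0.41), the most abundant of the 16, had an FDR of 1.0. Among 14 tested NF-kappaB factors and feedback genes, Bcl3, a nuclear partner of NF-kappaB, was the 1 called with HDM (2.27, 0.44, FDR 0.069). Bcl3 was at 72.5 and 71.7 CPM in lesional skin without and 56.7 and 28.8 CPM with butyrate. Between the lesional groups 11 of the 14 were lower, 7 without overlap, and 3 were higher, 1 without overlap. By edgeR 0 of the 14 had an unadjusted p below 0.05. Nfkbia, the inhibitor that NF-kappaB itself induces, had a log2 fold change of -0.29 (0.27) between the lesional groups, Nfkb1 of -0.19 (0.18) and Nfkbiz of -0.43 (0.35), with an FDR of 1.0 each. Among 9 regulators of the decay of chemokine transcripts, Zc3h12a, the RNase Regnase-1, rose with HDM (1.99, 0.34, FDR 0.052). With butyrate in lesional skin Zfp36l2 had 0.15 (0.19), Zfp36l1 0.02 (0.15) and Dusp1 0.04 (0.24). Of the 9, 6 were higher there, 1 without overlap, and 3 were lower, 2 without overlap. These 2 were Zfp36 (146 and 139 CPM without, 112 and 110 CPM with butyrate) and Arid5a (53.7 and 49.6 against 29.3 and 22.2 CPM). By edgeR 0 of the 9 were called and 2 had an unadjusted p below 0.05.

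Cxcr1, the second receptor of this family, had 0 counts in both baseline CTL mice, 1.12 and 0.97 CPM in lesional CTL and 0.33 and 0.51 CPM in lesional butyrate mice, and it was called higher with HDM. Ackr1 (log2 fold change -0.10, standard error 0.48), Ackr3 (-0.60, 0.34) and Cxcl12 (-0.50, 0.33) were not called between the lesional groups. Ackr1 and Ackr3 are scavenging receptors, and Cxcl12 retains neutrophils in the marrow through Cxcr4. In the other colony factor genes, Csf2rb2, a receptor subunit of interleukin-3, rose with HDM by 1.79 (0.41, FDR 0.092), the 1 called of 9 tested. Csf1r (-0.32, 0.58), Csf2rb (-1.09, 0.46) and Csf1 (-0.48, 0.48) were not called between the lesional groups. Of the other CXC chemokines and receptors, 0 of 7 tested were called with HDM, 2 of them at an unadjusted p below 0.05. Cxcl14 (0.32, 0.74) and Cxcl16 (1.04, 0.42) were the most abundant of these, followed by Cxcl13 (-0.93, 1.14). Cxcl11 and Cebpd were not analysed here.

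Of 12 genes of neutrophil adhesion and egress, 11 were higher with HDM in CTL mice and 3 were called. These were the selectins Sele (log2 fold change 2.87, standard error 0.52, FDR 0.059) and Selp (2.67, 0.35, FDR 0.035), on which leukocytes roll along vessels. The third was the integrin Itgal (2.38, 0.44, FDR 0.061). In lesional skin Sele was measured at 31.5 and 23.7 CPM without and 9.88 and 9.58 CPM with butyrate, and the groups did not overlap. Selp was at 39.5 and 36.3 CPM in lesional CTL mice. Between these groups 11 of the 12 were lower and 1 was higher. Of the lower ones, 9 did not overlap, where 22.5% of all tested genes were lower without overlap. By edgeR 0 were called and 3 had an unadjusted p below 0.05. The most abundant of the 12 were Lta4h (0.22, 0.16), Icam1 (-0.50, 0.21) and Alox5ap (-0.82, 0.63), all with an FDR of 1.0 between these groups.

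Of 26 neutrophil markers, 21 were tested and 12 were called higher with HDM in CTL mice. S100a8 rose by a log2 fold change of 8.72 (standard error 0.87, FDR 0.023) and S100a9 by 8.43 (0.67, FDR 0.0094). Trem1 rose by 8.36 (0.85, FDR 0.023) and Stfa2l1 by 7.84 (0.85, FDR 0.026). Retnlg rose by 6.28 (0.69, FDR 0.026) and Clec4d by 4.82 (0.43, FDR 0.015). The whole list summed to 209 and 234 CPM in baseline CTL, 245 and 199.9 CPM in baseline butyrate, 3034 and 2029 CPM in lesional CTL and 961 and 522 CPM in lesional butyrate mice. S100a8 and S100a9 made up 2465 and 1414 CPM of it in lesional skin without butyrate and 710 and 271 CPM with it, and the other 24 genes summed to 569 and 615 CPM without and to 251 CPM in each mouse with butyrate. The groups differed in this sum as in the 7 genes. Within lesional CTL mice S100a8 and S100a9, and with them the whole sum, were higher in replicate 4. The sum of the other 24 genes (569 CPM in replicate 4 and 615 CPM in replicate 5) and each of the 7 genes were higher in replicate 5. The part of these markers in the differences of the 7 genes was not tested. Ly6g, Ltf, Camp and Ngp, which are among the 26, stayed at or below 0.46 CPM in every mouse. Of the 21 tested, 18 were higher and 3 lower with HDM in CTL mice. Between the lesional groups 17 of 21 were lower and 0 were called, with 13 at an unadjusted p below 0.05, S100a9 having a log2 fold change of -1.90 (0.49, FDR 0.74), S100a8 of -2.11 (0.63, FDR 0.85) and Mxd1 of -0.40 (0.42). In lesional butyrate against baseline CTL mice, S100a9 (6.52, 0.62, FDR 0.035) and S100a8 (6.62, 0.80, FDR 0.068) were the 2 of 105 pathway genes called (1.90%). S100a9 was also the 1 called (0.952%) against baseline butyrate mice (6.39, 0.61, FDR 0.038). S100a8 and S100a9 are also made by inflamed keratinocytes.

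Markers of other cells moved with the groups as well. With HDM in CTL mice, 5 of 5 mast cell, 5 of 5 T cell and 3 of 3 eosinophil markers tested were higher. Of these, 3 mast cell markers, 1 T cell marker (Cd4) and 1 eosinophil marker (Ccr3) were called. The macrophage list summed to 722 to 967 CPM in baseline CTL, 1339 to 1585 CPM in lesional CTL and 706 to 1326 CPM in lesional butyrate mice, with 0 of 7 genes called. Keratinocyte markers summed to 21447 and 22241 CPM in baseline CTL, 14965 and 15745 CPM in lesional CTL and 21084 and 23506 CPM in lesional butyrate mice, with 0 of 8 called by edgeR between these groups and 4 at an unadjusted p below 0.05 with HDM in CTL mice. Skeletal muscle markers summed to 36489 and 44283 CPM in baseline CTL, 15604 and 21797 CPM in lesional CTL and 12519 and 22377 CPM in lesional butyrate mice. With HDM in CTL mice, 6 of 6 muscle genes were lower without overlap, where 38.5% of all tested genes were. Of these 6, 0 were called by edgeR and 0 had an unadjusted p below 0.05. The part of these cells in the differences of the 7 genes was not tested.

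Along chromosome 5, the 4 ligand genes lie among genes of their own and of other families. Of the other members of the cluster, Pf4, platelet factor 4, had a log2 fold change of 0.69 (standard error 0.65, FDR 0.57) with HDM. Ppbp was at most 0.65 CPM in any mouse and Cxcl15 had 0 counts in all 8. Of 12 protein-coding genes within 500 kb on either side, 9 were tested and 1 was called with HDM, Epgn, an epidermal growth factor relative (2.41, 0.51, FDR 0.080). Mean Epgn levels in lesional skin were 61.6 CPM without and 56.2 CPM with butyrate (-0.13, 0.48). Areg, of the same family, had 2.70 (0.71, FDR 0.13) with HDM and -1.60 (0.68, FDR 1.0) between the lesional groups. For Ereg, also of that family, the latter was 1.53 (0.48). Mthfd2l, the nearest gene downstream of Cxcl2, had -0.14 (0.29) and -0.24 (0.29).

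**Figure D5:**
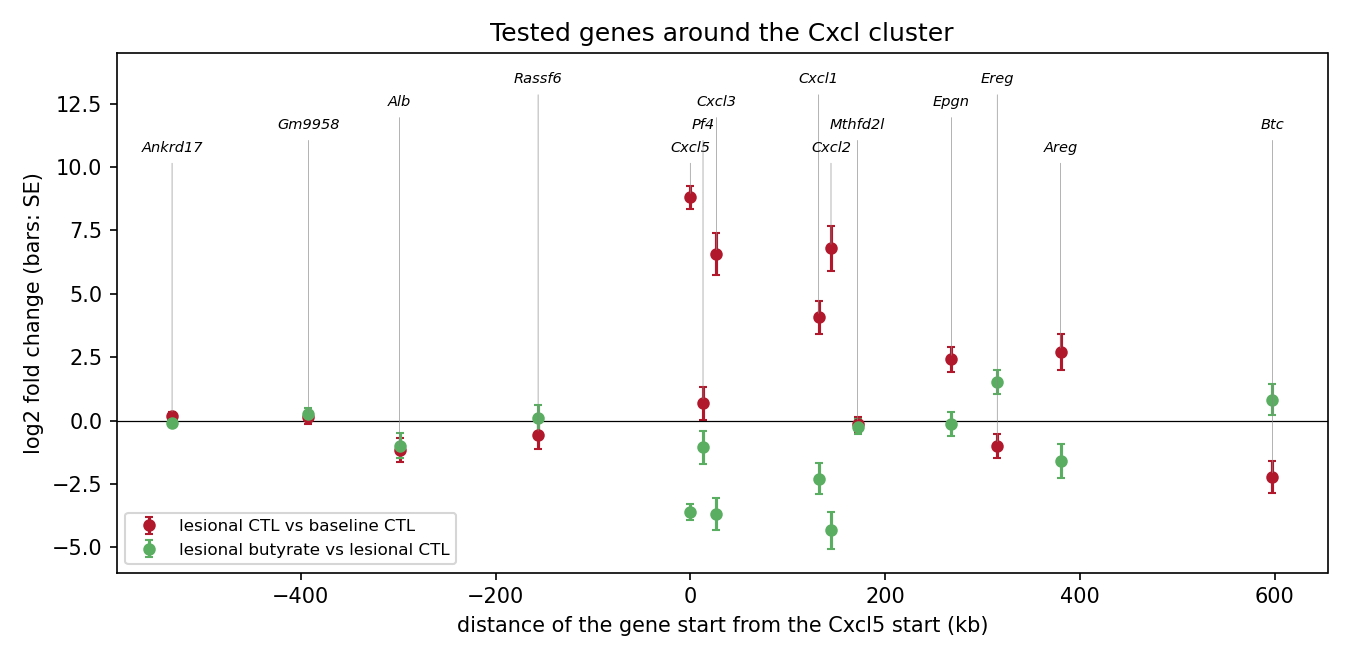
Log2 fold change (bars, standard error) of each tested gene within 500 kb of the cluster against the distance in kb of its start from that of Cxcl5, for HDM in CTL mice and for butyrate in lesional skin. Cxcl5, Cxcl3, Cxcl1 and Cxcl2 lie from 4.07 to 8.80 for HDM and from -4.33 to -2.29 for butyrate, and Mthfd2l, 171.757 kb away, is near 0 in both.

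The letters GGGAATTTCCC were also in the promoters of 11 other genes, of which 4 were tested, Hpn, Il16, Kremen2 and Zfp84. Their log2 fold changes with HDM in CTL mice were -0.64 (standard error 0.36), 0.02 (0.50), -0.66 (0.42) and 0.01 (0.20), with an FDR of 0.36 to 0.99 by edgeR's quasi-likelihood test.

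The genes whose pattern over the 8 libraries was closest to the mean of the 4 ligands were, by the root mean square difference of centred log2 CPM, Gm5483 (0.39), Retnlg (0.44), Cd300lf (0.50), Il1b (0.53), Stfa2l1 and Mmp10 (0.54 each), where the median over 14190 candidate genes was 2.48. The candidates closest to the mean of Cxcr2 and Csf3r were Clec4d (0.40), Col6a5 (0.40), Timp1 (0.43), Gad1-ps (0.45), Adamts4 (0.45) and Clec4e (0.46), against a median of 1.97. Mean levels in lesional mice without and with butyrate were 33.8 and 4.35 CPM for Cd300lf, 9.65 and 1.23 CPM for Mmp10, a matrix protease, and 106 and 26.1 CPM for Timp1, an inhibitor of such proteases. These genes were named for this likeness, so their values are a description.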

How the data were processed

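The authors aligned the reads with STAR 2.5.2 to GRCm38 through RNASik and counted them per gene with featureCounts, and the deposited values are raw counts, not normalized. The counts are of the reverse strand by the name of the deposit, while the strand setting of the TruSeq kit is not given in the sources used here. The 7 genes overlap no other gene. Members, gene lists and tests were chosen with earlier results of these data known. CPM used TMM-scaled library totals. edgeR 4.0.16 in R 4.3.3 (glmQLFit, robust, filterByExpr with a minimum count of 10, prior count 0.125) was fitted to all 8 mice with 1 mean per group, and 15163 of 22740 genes were tested. Genes were called at an FDR below 0.1 (Benjamini-Hochberg over all tested genes) and a fold above 2. The standard error is the log2 fold change divided by the root of F. limma-voom (3.58.1, the method of the study) and DESeq2 (1.42.0) were alternatives. The fits were tested on simulated data. RPKM used GENCODE exon lengths. Nothing says that mice were littermates or housed apart, so p-values measure the spread between these mice. Named were all 7 genes, the called genes of each pathway list (the 6 largest, at most), or the 3 most abundant where none was called, and the genes around the cluster. Intervals and floors cover counting error only. Of the marker lists, Trac was not analysed here.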

Additional observations from a re-analysis of the deposited data

Results flagged for a closer look

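No group had enough mice for a check of single samples that stand apart. Of the 105 tested pathway genes, 6 had butyrate-treated mice on opposite sides of CTL mice in lesional and baseline skin, in each mouse. In lesional skin 22.4% of all tested genes were higher and 22.5% lower without overlap with butyrate. In baseline skin the shares were 13.4% and 16.4%. The share of all genes with opposite directions was not counted, so the 6 are a description and no result about these genes. The difference between the effects, lesional minus baseline, was -3.66 on the log2 scale (standard error 0.94) for S100a8, -1.94 (0.55) for Cxcr4, -1.17 (0.47) for Cxcl12, 0.62 (0.27) for Zfp36l2, 0.48 (0.23) for Il17re and 0.23 (0.18) for Nfkbib. None passed edgeR's test of this difference over all genes, where the FDR was 0.84 for each. Baseline butyrate replicate 3, with hair follicle growth genes at 17277 CPM, is 1 of the 2 mice on which the baseline effect rests. S100a8 was at 3.04 and 7.71 CPM in the baseline butyrate mice and at 1.33 and 2.39 CPM in the baseline CTL mice. None of the 7 genes showed such opposite directions.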

How the results depend on the processing

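The number of genes called depended on single mice. With each mouse left out in turn, between 0 and 191 genes were called between the lesional groups (0 to 14 pathway genes), 0 to 1936 with HDM in CTL mice (0 to 43), 0 to 2990 in lesional against baseline butyrate mice (0 to 59), 0 to 1285 in lesional butyrate against baseline CTL mice (0 to 27), 0 to 3777 between the baseline groups (0 to 38) and 0 to 3275 for the difference of the effects (0 to 27). The highest count came without baseline butyrate replicate 1 for each comparison over all genes. Where a group is left with 1 mouse, that mouse is assumed to vary like the other groups. The median log2 fold change of the 7 genes, here and below with the fitted value of Csf3 and not its bound (6.57 with HDM in CTL mice in the fit of 8 mice), then lay between -3.44 and -2.81 for the lesional groups, 6.02 and 6.97 with HDM in CTL mice, 2.68 and 3.46 in lesional butyrate against baseline CTL mice and -2.52 and -0.72 for the difference of the effects.

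Between the lesional groups, DESeq2 called 124 genes (17 of the pathway), limma-voom 1, edgeR 25 (5) with only the mice compared and 188 (14) without the 2 baseline butyrate mice, and the median was -2.85 with a prior count of 2. With HDM in CTL mice, DESeq2 called 1093, edgeR 1918 (41) with only the mice compared, 1860 (41) without the 2 baseline butyrate mice and 245 (14) at an FDR below 0.05, and the median was 6.09 by limma-voom and 4.93 with a prior count of 2. In lesional against baseline butyrate mice, DESeq2 called 698 (31), edgeR 0 (0) with only the mice compared, 17 at an FDR below 0.05, 83 (3) without scaling factors and 2 pathway genes without the filter, and the median was 2.30 with only the mice compared and 2.29 with a prior count of 2. In lesional butyrate against baseline CTL mice, DESeq2 called 570 (21), limma-voom 23 (1), edgeR 1115 (26) with only the mice compared, 1267 (27) without the 2 baseline butyrate mice and 21 (1) at an FDR below 0.05, and the median was 2.34 by limma-voom and 2.09 with a prior count of 2. DESeq2 called 58 (1) between the baseline groups and 37 (3) for the difference of the effects, whose median was -2.81 with a prior count of 2. The cause of these shifts was not tested, except that the prior count moves genes near 0 counts by its construction. No value of 1 or more on the log2 scale changed sign. Of the smaller ones, between the baseline groups Cxcl1 turned to 0.35 and Csf3r to 0.68 without baseline butyrate replicate 3, Cxcr2 to -0.24 without baseline butyrate replicate 1 and Cxcl5 to 0.81 without baseline CTL replicate 2, and the median, -0.02, to 0.35 without baseline butyrate replicate 3. Cxcl2 in lesional against baseline butyrate mice turned from 0.68 to -0.11 without baseline butyrate replicate 3, and the difference of the effects for Cxcl3 to 0.14 without lesional butyrate replicate 4.

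Depth limits Cxcl2, Cxcl3, Cxcl5 and Csf3 in baseline skin, where folds rest on 0 to 24 counts per mouse. No paired analysis was possible because each mouse belonged to 1 group and the labels link no mice across groups. RLE factors and the filter at 1 CPM in at least 2 mice changed none of these counts by more than 1.5 times.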
